A study of Mus musculus with 7 samples.

Results

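The genes described are 9 members of the Fanconi anaemia pathway, Fanca, Fancc, Fancd2, Fance, Fancf, Fancg, Fanci, Fancl and Fancm, out of 21627 protein-coding genes on the autosomes and X. They were chosen by name, and each was taken with its body and 5 kb on each side (mm10, RefSeq table of GRCm38.p6). Their windows cover 627 kb in all. The data are maps of short nascent strands, the DNA pieces left near a site where replication forks have just started, in mouse embryonic stem cells (mESCs). Peaks of these strands were deposited for 6 libraries, and origins as 1 list per condition. APH libraries (2) came from TetO-CDC6 mESCs, which derive from a mouse with a doxycycline-inducible CDC6 transgene, and were exposed for 2.5 h to aphidicolin, a drug that slows replicative DNA polymerases, at 0.5 µM. CDC6 libraries (2) came from the same mESCs after 30 h with doxycycline at 1 µg/ml, which switches on the transgene for CDC6, a factor that licenses origins. Both WT libraries came from untreated cells: WT 2 from TetO-CDC6 mESCs, and WT 1 from other, wild-type mESCs grown in another medium, a library that was deposited earlier. DNA libraries do not measure CDC6, so its induction could not be checked. Nothing in the labels tells whether replicate libraries stem from independent cultures. The p-values below therefore measure only how far these libraries spread, which may be technical.

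The Fanconi anaemia pathway repairs DNA interstrand crosslinks and protects stalled replication forks. Fancm, a DNA translocase, brings the core complex to the damage. Fanca, Fancc, Fance, Fancf and Fancg are core complex subunits. Fancl is the ubiquitin ligase of the complex, and its substrate is the pair formed by Fancd2 and Fanci, whose ubiquitination starts the repair. Cells that lack the pathway are hypersensitive to crosslinking agents, and Fancd2 is also known to gather at fragile sites when aphidicolin slows replication. The windows show where replication starts at the genes that encode these proteins, and say nothing of the level of the proteins.

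Libraries held between 71435 (APH 2) and 94747 (WT 1) MACS peaks, and 19 and 20 (APH), 23 and 26 (CDC6), and 32 and 25 (WT) of them had their midpoint in the 9 windows. The sequencing depth is unknown, and these numbers of peaks limit the precision. WT 1 stood apart. Its peaks shared 0.205 of the covered sites with those of WT 2 (Jaccard index), against 0.569 between the APH libraries and 0.486 between the CDC6 libraries. In addition, 8.26% of its peaks lay on chromosome 8, where Fanca is, against 4.86% to 5.53% in the other libraries. The condition lists held 31653 (APH), 31384 (CDC6) and 20178 (WT) origins. Each library also has a second deposited list, and some of their labels go against the content: every origin of the WT condition list recurs in the one labelled APH 1, and every origin of the APH list in the one labelled CDC6 1. The condition lists were overlapped by the MACS peaks of their own condition at 99.4% or more of their origins. The second lists were therefore used only in alternatives.

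Promoters are shown first because the members differ in whether origins and peaks lie there. RefSeq (GRCm38.p6) gave a promoter, 250 bases before to 50 bases after the start site, for 8 of the 9 members. The next 6 run 5′ to 3′ on the gene's own strand, with every CpG in capitals, and stand in the order of how much of each was covered by origins and peaks. Fancf (chr7:51862218-51862517, minus strand) overlapped an origin of all 3 lists, by at least 232 of its 300 bases. Fancm (chr12:65075353-65075652, plus strand) and Fancg (chr4:43010252-43010551, minus strand) overlapped an origin of the APH and CDC6 lists, by 216 (APH) and 300 (CDC6) of the 300 bases at Fancm and 132 (APH) and 106 (CDC6) at Fancg. Fancc (chr13:63431696-63431995, minus strand) touched an origin of the CDC6 list. Fanci (chr7:79392088-79392387, plus strand) and Fancl (chr11:26386834-26387133, plus strand) met no origin and no peak of any library.
Fancf: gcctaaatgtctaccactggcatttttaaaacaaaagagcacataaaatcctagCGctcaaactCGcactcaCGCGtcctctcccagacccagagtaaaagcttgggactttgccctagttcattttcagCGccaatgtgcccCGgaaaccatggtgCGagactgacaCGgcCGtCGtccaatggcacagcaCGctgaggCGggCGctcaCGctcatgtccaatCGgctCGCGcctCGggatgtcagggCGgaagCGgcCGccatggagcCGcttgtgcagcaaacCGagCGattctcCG
Fancm: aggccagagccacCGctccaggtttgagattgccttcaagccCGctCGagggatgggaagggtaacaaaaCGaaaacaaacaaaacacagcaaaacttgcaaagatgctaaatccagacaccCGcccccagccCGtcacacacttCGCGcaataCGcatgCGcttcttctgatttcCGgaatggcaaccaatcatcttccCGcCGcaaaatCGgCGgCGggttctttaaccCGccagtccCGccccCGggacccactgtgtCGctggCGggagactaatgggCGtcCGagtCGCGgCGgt
Fancg: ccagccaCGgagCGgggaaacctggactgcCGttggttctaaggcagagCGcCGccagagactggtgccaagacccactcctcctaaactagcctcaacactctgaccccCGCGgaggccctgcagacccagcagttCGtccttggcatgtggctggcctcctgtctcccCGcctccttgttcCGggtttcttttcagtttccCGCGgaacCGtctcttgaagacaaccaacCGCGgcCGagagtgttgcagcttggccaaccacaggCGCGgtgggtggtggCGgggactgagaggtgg
Fancc: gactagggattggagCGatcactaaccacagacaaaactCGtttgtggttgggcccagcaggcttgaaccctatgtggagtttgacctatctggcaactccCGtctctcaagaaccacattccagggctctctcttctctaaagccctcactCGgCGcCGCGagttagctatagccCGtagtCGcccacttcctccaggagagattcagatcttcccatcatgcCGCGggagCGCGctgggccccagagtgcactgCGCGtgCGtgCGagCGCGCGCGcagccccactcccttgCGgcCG
Fanci: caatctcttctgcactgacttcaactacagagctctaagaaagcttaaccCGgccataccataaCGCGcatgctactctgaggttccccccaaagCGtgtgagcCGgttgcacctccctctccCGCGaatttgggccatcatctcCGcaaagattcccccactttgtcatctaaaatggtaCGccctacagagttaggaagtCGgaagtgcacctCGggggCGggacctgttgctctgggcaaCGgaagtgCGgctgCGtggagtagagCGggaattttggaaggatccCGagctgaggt
Fancl: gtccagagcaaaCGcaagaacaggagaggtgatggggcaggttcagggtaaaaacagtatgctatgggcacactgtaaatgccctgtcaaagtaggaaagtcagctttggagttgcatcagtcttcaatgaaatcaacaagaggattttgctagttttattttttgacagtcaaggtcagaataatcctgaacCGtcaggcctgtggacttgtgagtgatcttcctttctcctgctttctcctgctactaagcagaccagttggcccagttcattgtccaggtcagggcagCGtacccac

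The Fancl promoter had 3 CpGs and a GC content of 47.0%, below the medians of 13 CpGs and 56.7% over all 21044 promoters of the table. The other members had 17 (Fanci) to 26 (Fancm) CpGs, with 19 at Fanca and Fancg, 23 at Fancc, 24 at Fance and 25 at Fancf. CpG number alone did not order the members by nascent strand peaks: the Fanci promoter exceeded the median CpG number and had no peak. Fancm was the only member with a G-quadruplex motif (4 runs of at least 3 G with loops of 1 to 7 bases, both strands), which 22.3% of all promoters hold. The box CCAAT, searched on both strands, was present 3 times at Fancf, 2 times at Fanca and 1 time each at Fancc, Fance and Fancm, and in 38.5% of all promoters. A match describes these letters only.

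Peaks in all 6 libraries overlapped 3 of the 8 promoters, those of Fancc, Fancf and Fancm, against 32.7% of all promoters. Fance and Fancg had a peak over the promoter in 5 libraries, all but WT 2. Fanca had one in 4 libraries, APH 1, both CDC6 libraries and WT 1. An origin overlapped 3 promoters in the APH list (27.6% of all promoters), 4 in the CDC6 list (34.5%) and 1 in the WT list (26.5%). The APH promoters are Fancf, Fancg and Fancm, CDC6 adds Fancc, and Fancf is the WT promoter. These counts are small, and the APH and CDC6 lists also hold more origins than the WT list.

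**Figure D1:**
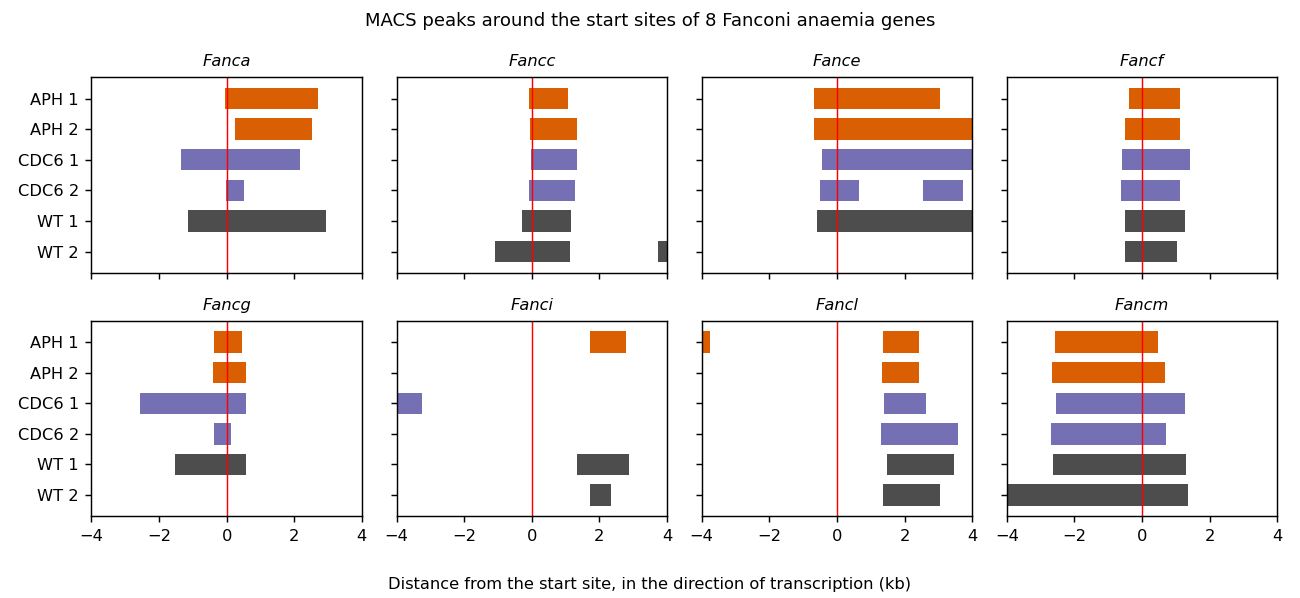
MACS peaks of each library (rows, APH and CDC6 above WT) around the start sites of 8 members, with the distance from the start site in kb in the direction of transcription on the x axis and the start site as a red line. Bars cover the start sites of Fancc, Fancf and Fancm in all 6 libraries, and no bar covers those of Fanci and Fancl.

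Among the members, core complex subunits with short genes had the densest peaks. Fance (13.0 kb, chr17:28313530-28326574), Fancf (1.69 kb, chr7:51860577-51862267) and Fancg (8.23 kb, chr4:43002337-43010567) averaged 10.2, 10.0 and 10.2 peaks per 100 kb of window over the 6 libraries. The median over all genes was 4.30 peaks per 100 kb. Flanks make up much of these windows, which were 23.0, 11.7 and 18.2 kb long. Some of the peaks lay at the starts of the neighbours Rpl10a and Vcp, and genes of like length were not compared. Per window, Fance, Fancf and Fancg averaged 2.36, 1.17 and 1.86 scaled peaks, beside a median of 1.51 over all genes. A scaled number is the number of peaks multiplied by the mean library total over the library's own total.

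Fancf had a stronger start-site peak than any other member in each of the 6 libraries. The authors' fold of that peak over the control was 4.07 and 4.73 in APH, 4.91 and 4.69 in CDC6, and 5.93 and 3.66 in WT. The origin, at chr7:51861273-51862523 when the 3 lists are merged, also covers the start site of the neighbour Gas2, which runs on the opposite strand and encodes a cytoskeletal protein. The Fancf window had 1 peak in each library except WT 2, which had 2.

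The Fancg window held 2 origin loci. The stronger, chr4:42999595-43000745, covers the start site of the neighbour Vcp, an ATPase that extracts ubiquitinated proteins, and was in all 3 lists. Its peaks had folds of 4.91 and 5.31 in APH, 5.52 and 6.05 in CDC6, and 6.81 and 5.17 in WT, at percentiles 94.0 to 98.6 of their library by q-value. At the Fancg start site itself, an origin from -0.082 to 0.451 kb was in the APH and CDC6 lists. Its folds were 3.14 and 2.83 in APH, 2.78 and 3.35 in CDC6 and 2.72 in WT 1, and WT 2 had no peak there. Scaled numbers in the window were 2.13 and 2.22 in APH, 2.19 and 1.93 in CDC6, and 1.68 and 0.979 in WT.

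At Fance the scaled number was 2.13 and 3.33 in APH, 3.29 and 2.90 in CDC6, and 2.51 and 0 in WT. WT 2 is the low library, and both CDC6 values lay above both WT values, while APH and WT overlapped. Across the tested windows 23.8% had both CDC6 values above both WT values. The log2 difference was 0.97 ± 0.54 (SE) in APH minus WT and 1.13 ± 0.54 (SE) in CDC6 minus WT, with limma adjusted p = 0.729 and 0.602. Without WT 1, when the WT group is WT 2 alone with its 0 peaks, these became 1.88 and 2.03, with limma adjusted p = 0.0337 and 0.0128. That WT arm is 1 library, so the spread comes from the APH and CDC6 libraries, and WT 2 is assumed to vary like them. The origin counted for Fance, chr17:28328520-28329320, lies downstream over the start of Rpl10a, a ribosomal protein gene, in the APH and CDC6 lists. It had a peak in every library but WT 2, with folds of 2.55 to 3.48. No origin lay at the Fance start site, although APH, CDC6 and WT 1 libraries had a peak across it.

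**Figure D2:**
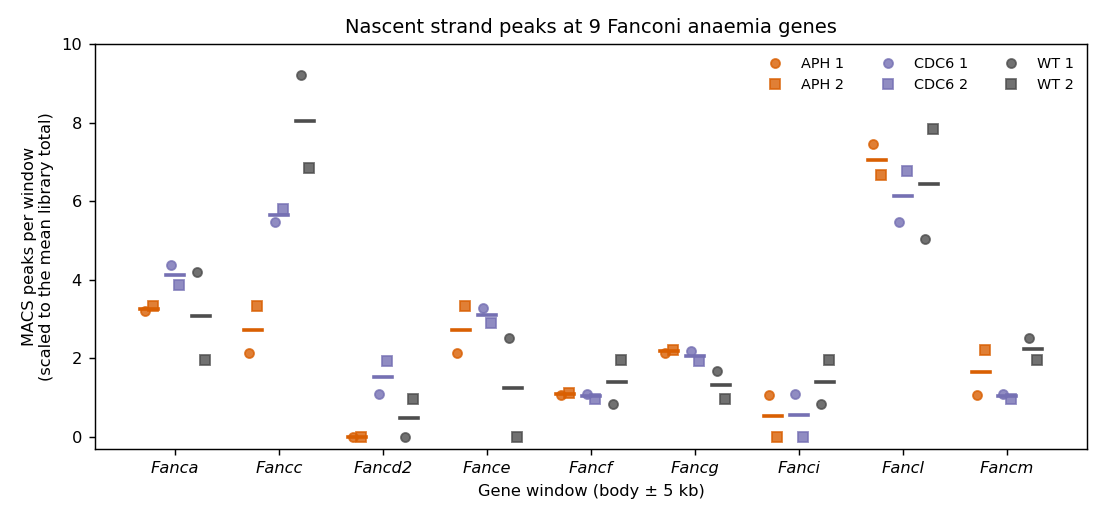
Scaled number of MACS peaks (y axis) in each member's window (x axis) for the 2 libraries of APH, CDC6 and WT, with the group mean as a bar. Fancc is the member in which the APH, CDC6 and WT values form separate ranges, and Fancl has the highest mean over the 6 libraries, while Fancc has the highest WT mean.

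Fancc, a core complex subunit gene with the longest annotated span (196 kb, chr13:63301334-63497292), had the fewest peaks in APH of the 3 conditions. It had 2 and 3 peaks in APH, 5 and 6 in CDC6, and 11 and 7 in WT. The scaled numbers were 2.13 and 3.33 in APH, 5.48 and 5.80 in CDC6, and 9.22 and 6.85 in WT. The 3 ranges did not overlap. The aminopeptidase gene Aopep touches the same window. Both APH values lay below both WT values in 15.5% of all tested windows, both CDC6 values below both WT values in 10.2%, and both APH values below both CDC6 values in 30.1%. Of the 4 members tested, Fancc was in the first and the second of these sets, and Fancc and Fanca were in the last.

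The log2 difference at Fancc was -1.28 ± 0.30 (SE, 95% interval -1.98 to -0.59) in APH minus WT, with limma adjusted p = 0.494 and rank 40 of 8290 windows. It was -0.43 ± 0.30 (SE) in CDC6 minus WT, with limma adjusted p = 0.672. APH minus CDC6, a difference between libraries of the same mESCs, gave -0.85 ± 0.30 (SE), with limma adjusted p = 0.538. Its SE and p also draw on the spread between the WT libraries, which come from different mESCs. None of the 3 comparisons passed the threshold of 0.05. The median log2 difference over all tested windows was 0.04, 0.14 and -0.15 in the 3 comparisons. Both comparisons with WT share the WT libraries.

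The bases under peaks gave another order at Fancc. Peaks covered 9.67 and 10.7 kb in APH, 6.27 and 6.10 kb in CDC6, and 12.6 and 11.1 kb in WT. In APH most of this was 1 long peak per library, 8526 and 8628 bp, from -12.7 to -4.20 kb in APH 1 and -12.7 to -4.03 kb in APH 2. In CDC6 2 the same stretch held separate peaks of 1823 and 786 bp, and in CDC6 1 a peak of 2098 bp. Peaks of all regions also averaged longer in APH, at 2.10 and 1.81 kb, than in CDC6, at 1.54 and 1.39 kb, and WT, at 1.60 and 1.66 kb. The number of peaks and the length covered at Fancc therefore did not fall together: APH had the fewest peaks, and CDC6 the least covered length.

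Of the 16 merged peak regions of Fancc, 2 were present in all 6 libraries and 9 in 1 library. The shared pair were the start site and the stretch around -6 kb. The start-site origin, chr13:63430717-63431733, lies 0.012 to 1.03 kb downstream of the start site and was in the APH and CDC6 lists. Its peaks had folds of 3.78 and 3.94 in APH, 2.74 and 3.92 in CDC6, and 5.92 and 2.33 in WT. WT 1 was the highest and WT 2 the lowest of the 6. The other origin, -6.33 to -5.74 kb from the start site and still inside the annotated span, was in the CDC6 list, and all 6 libraries had a peak over it, with folds of 2.45 to 3.90. WT 1 alone held 11 of the 34 peaks of the window.

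**Figure D3:**
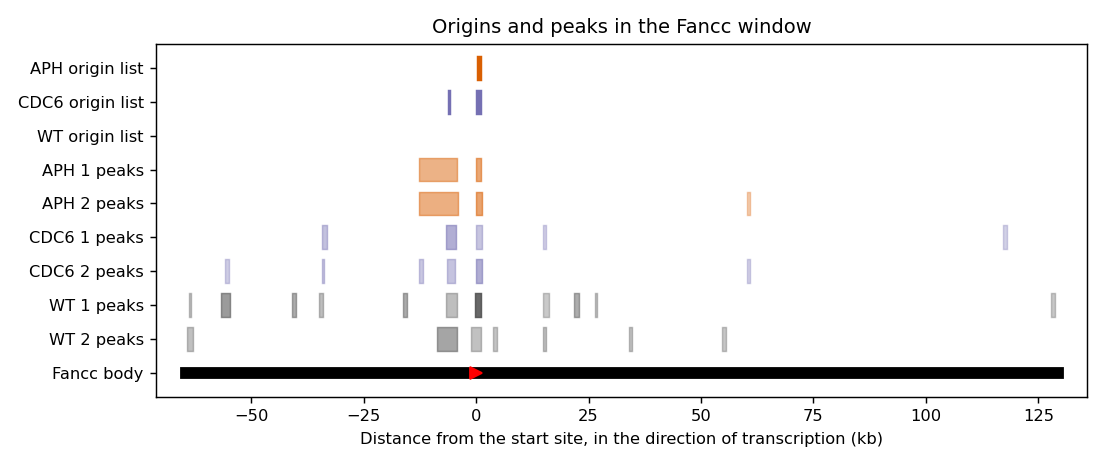
Origins of the APH, CDC6 and WT lists and MACS peaks of the 6 libraries (rows, stronger folds darker) in the Fancc window, by distance in kb from the start site (red) in the direction of transcription. The long APH peaks upstream of the start site face shorter peaks in CDC6 and WT 1, and WT libraries have more scattered peaks.

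Fanca, the core complex subunit gene on chromosome 8 (52.4 kb, chr8:123266294-123318651), had 3 and 3 peaks in APH, 4 and 4 in CDC6, and 5 and 2 in WT. Scaled numbers were 3.19 and 3.33 in APH, 4.39 and 3.87 in CDC6, and 4.19 and 1.96 in WT, and the WT values enclosed those of APH. The log2 difference was 0.12 (APH minus WT), -0.26 (APH minus CDC6) and 0.39 (CDC6 minus WT), each ± 0.32 (SE), with limma adjusted p = 0.928, 0.850 and 0.704. Without WT 2 the differences from WT turned to -0.28 (APH) and -0.02 (CDC6). With numbers scaled to the total of chromosome 8, of which WT 1 has a larger share, they were 0.36 (APH) and 0.58 (CDC6), with limma adjusted p = 0.730 and 0.617. The single origin in the window, chr8:123267729-123268472, was in the CDC6 list. It lies in the 3′ part of Fanca, where the neighbour Zfp276, a zinc finger gene, overlaps it, and all 6 libraries had a peak there with folds of 2.43 to 4.39.

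Fancl, the ubiquitin ligase gene (84.8 kb, chr11:26387084-26471883), had 7 and 6 peaks in APH, 5 and 7 in CDC6, and 6 and 8 in WT. Over the 6 libraries these are 39 peaks, more than at any other member (34 at Fancc), although Fancc had more in WT. Its scaled mean over all libraries was 6.54 per window, percentile 94.7 of all genes, and 6.90 per 100 kb, percentile 71.7. The conditions overlapped, with scaled means of 7.06 ± 0.56 in APH, 6.13 ± 0.91 in CDC6 and 6.43 ± 1.99 in WT (SD, n = 2 each). The log2 difference was 0.14 in APH minus WT, 0.18 in APH minus CDC6 and -0.04 in CDC6 minus WT, each ± 0.30 (SE), with limma adjusted p = 0.903, 0.916 and 0.972. The 95% intervals ran from -0.57 to 0.85, from -0.53 to 0.89 and from -0.75 to 0.67.

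Fancl held 6 of the 15 origin loci of the members, all inside the gene and none at its CpG-poor promoter or at the neighbour Vrk2, a kinase gene. Loci at 1.49 to 2.26 kb, 27.0 to 27.8 kb and 30.3 to 31.0 kb from the start site were in all 3 lists and had a peak in all 6 libraries. The locus at 6.21 to 6.83 kb was in the APH list, and also had a peak in CDC6 2 and WT 2. The RefSeq table gives no exons, so whether these loci are exonic or intronic was not determined here.

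In every library except WT 1, the peak with the highest fold at any member lay inside Fancl, at chr11:26425971-26427673, 38.9 to 40.6 kb from the start site. Their folds were 5.43 and 7.88 in APH, 9.74 and 7.83 in CDC6, and 5.59 and 5.58 in WT. In WT 1 the peaks at Vcp, Fancf and the Fancc start site had higher folds. Ranked by q-value within its library, each was at percentile 96.3 or above. In the APH list this origin had rank 394 by the authors' second score, and in the CDC6 list rank 1087. It was not in the WT list, although both WT libraries had a peak there at percentiles 96.3 and 99.4. Absence from the WT list thus did not mark a weak or missing WT peak at this site.

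Peak shape at this site differed between libraries. The peak was 8216 and 8477 bp long in APH, 3042 and 1911 bp in CDC6, and 2382 and 4906 bp in WT. Each APH peak was longer than any CDC6 or WT peak there, and ran on over a further origin of the CDC6 list at 46.0 to 46.8 kb. CDC6 libraries had a separate peak at that further origin, with folds of 2.34 and 3.20, and WT libraries had none. Over the whole window, peaks covered 19.7 and 14.6 kb in APH, 7.77 and 9.92 kb in CDC6, and 8.51 and 16.4 kb in WT, so that the covered length of WT 2 fell between those of the APH libraries. These lengths were not tested. Of all peaks, 1.69% and 0.805% in APH, 0.547% and 0.386% in CDC6, and 0.914% and 0.30% in WT were at least 8 kb long.

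**Figure D4:**
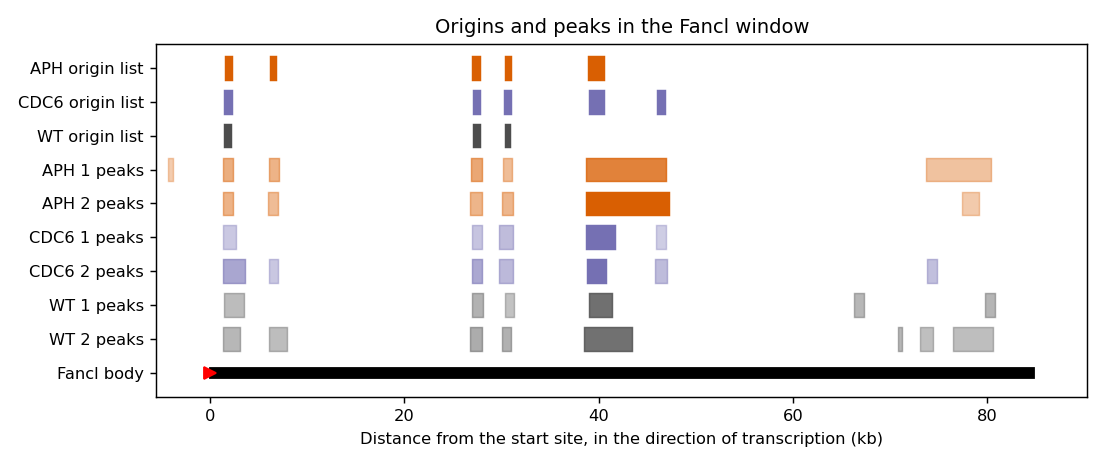
Origins of the APH, CDC6 and WT lists and MACS peaks of the 6 libraries (rows, stronger folds darker) in the Fancl window, by distance in kb from the start site (red). The darkest peaks lie at about 39 kb in every library, are longest in APH, and have an origin in the APH and CDC6 lists but not in the WT list.

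The genes whose scaled numbers followed those of Fancl most closely over the 6 libraries, among the 8290 tested windows, were Arid4b (Pearson r = 0.995), Dph6 (r = 0.995) and Anks1b (r = 0.986) on the log2(number + 1) scale. With 6 libraries that share the totals used for scaling and 8290 windows to choose from, these are descriptions.

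Fancm, the DNA translocase gene (57.7 kb, chr12:65074110-65131842), had 1 and 2 peaks in APH, 1 and 1 in CDC6, and 3 and 2 in WT. Of these 10 peaks, 6 were at its start and 4 lay far downstream of it, 3 of them in WT. Of those in WT, 1 peak of WT 1 (chr12:65135723-65136539) lay beyond the end of the gene, in the flank. A single peak of each library, with a fold between 2.51 and 3.55, spanned both the start of Fancm and that of Fkbp3, a prolyl isomerase gene on the other strand. In the APH and CDC6 lists this stretch was split into 2 origins, chr12:65073244-65074158 over the start of Fkbp3 and chr12:65075312-65076290 over the start of Fancm. The WT list had neither origin, although both WT libraries had the peak, with folds of 3.55 and 2.51.

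The substrate pair had the fewest peaks and no origin. Fancd2 (65.4 kb, chr6:113531640-113597020) had 0 and 0 peaks in APH, 1 and 2 in CDC6, and 0 and 1 in WT, or 0.887 scaled peaks per 100 kb. Its peaks had folds of 2.16 to 2.55, and none was above percentile 40.0 of its library. Fanci (58.0 kb, chr7:79392312-79450266) had 1 and 0 peaks in APH, 1 and 0 in CDC6, and 1 and 2 in WT, or 1.22 per 100 kb. APH 1, WT 1 and WT 2 each had a weak peak within 1.33 to 2.89 kb of its start, with folds of 2.00 to 2.30. Of all genes, 34.8% had no origin in any list, as these 2 of the 9 members did. The neighbours Emc3 and Fancd2os at Fancd2, and Rlbp1 and Polg (the mitochondrial DNA polymerase) at Fanci, touch these windows too.

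Set together, 6 members had an origin in their window in the APH list, 7 in the CDC6 list and 3 in the WT list. Over all genes the shares were 53.6% (APH), 58.5% (CDC6) and 48.1% (WT). The WT members are Fancf, Fancg and Fancl. An APH origin without a WT origin was found at 3 members, Fancc, Fance and Fancm (10.2% of all genes), and a CDC6 origin without a WT origin at 4, the same genes and Fanca (13.9%). None had a WT origin without an APH or CDC6 origin (1.64%). There is 1 list per condition, so these counts have no replicate error and no test. In number, 12 APH, 14 CDC6 and 5 WT origins lay in the windows, or 19.1 (APH), 22.3 (CDC6) and 7.97 (WT) per Mb. Over the windows of all genes there were 15.2 (APH), 16.6 (CDC6) and 11.5 (WT) per Mb. The median width at the members was 779.5 bp in APH, 780.5 bp in CDC6 and 716 bp in WT.

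Merged over the lists, these are 15 loci. All 3 lists held 5 of them (25.5% of all loci), the APH and CDC6 lists alone 6 (17.6%), the APH list alone 1 (19.3%) and the CDC6 list alone 3 (20.1%). Peaks of all 6 libraries overlapped 11 of the 15 (49.2% of all loci). Of the 10 loci without a WT origin, 6 had a peak in both WT libraries (36.1%), those of Fanca, Fancc, Fancm and the strongest of Fancl. Both loci at Fancm are among them and lie under a single peak in each library. The 6 and the 11 thus count that peak as separate loci. WT 1 is open to doubt as another mESC line. Whatever the other WT library showed, WT 2 had a peak at 7 of the 10 loci (64.4% of all such loci) and WT 1 at 8 (56.0%). All of the 10 except the Fancl locus at 46.0 kb had a peak in at least 1 WT library.

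**Figure D5:**
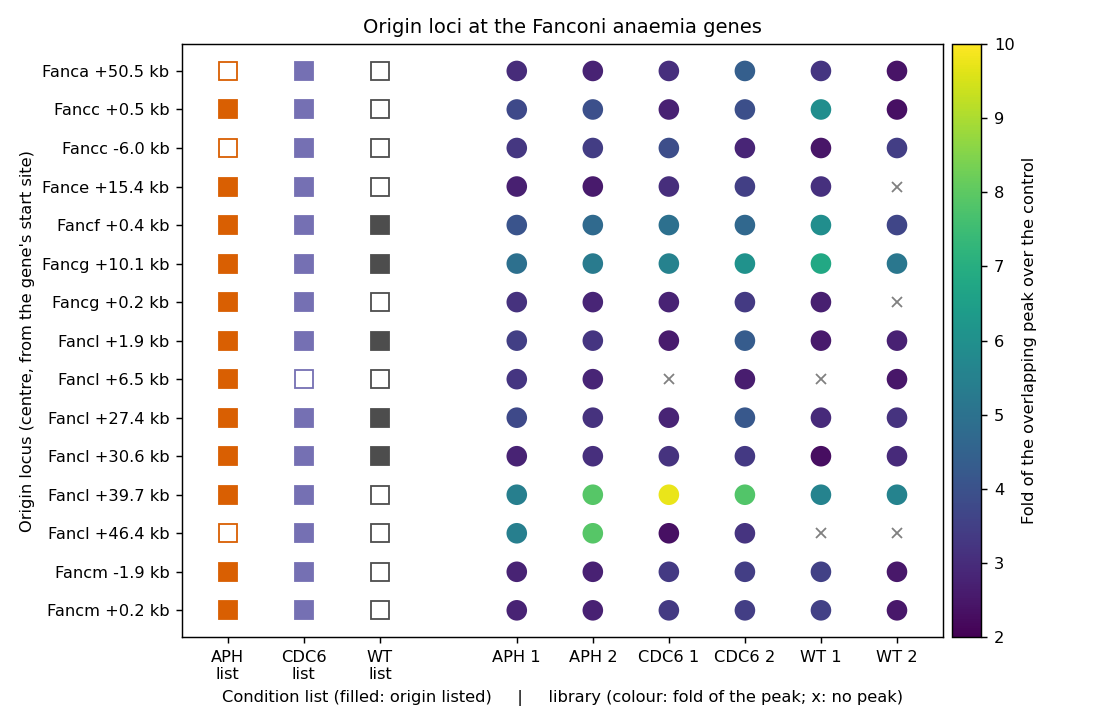
The 15 origin loci of the members (rows, by gene and distance of the centre from its start site), with filled squares where the APH, CDC6 or WT list holds the locus and, by library, the fold of the overlapping peak over the control as colour (a cross marks no peak). Only 5 rows have a filled WT square, and 11 rows have a peak in every library. In the last Fancl row, the APH colours (folds of 5.43 and 7.88) belong to long peaks that also cover the Fancl locus in the row above. The Fancm rows share a single peak in each library.

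Across libraries, 0.0255% and 0.0280% of the APH peaks, 0.0318% and 0.0317% of the CDC6 peaks, and 0.0338% and 0.0308% of the WT peaks lay in the 9 windows. The means were 0.0267% ± 0.0018 in APH, 0.0317% ± 6.72e-05 in CDC6 and 0.0323% ± 0.0021 in WT (SD, n = 2 each). The APH values were below the others, and the WT values enclosed those of CDC6. This share is dominated by Fancc and Fancl, which hold 34 and 39 of the peaks over the 6 libraries, and it got no test. Merged over libraries the peaks formed 46 regions, of which 10 (21.7%) were in all 6 libraries and 18 (39.1%) in 1, beside 15.2% and 40.0% of all 164160 regions of the series.

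Statistically no window was called. Of the 9 members, 4 (Fanca, Fancc, Fance and Fancl) reached the mean scaled number of 2 needed for testing, among 8290 windows, and 5 were below it. Limma called 0 of the 4 in each of the 3 comparisons, and 0 of all windows in APH minus WT (0%), in CDC6 minus WT (0%) and between APH and CDC6 (0%). At an unadjusted p under 0.05 it gave 627, 648 and 680 of the 8290 windows. No tested member had both APH values above both WT values (22.7% of tested windows) or both APH values above both CDC6 values (13.3%). Without WT 1, limma called 112, 812 and 0 windows in the 3 comparisons, Fance among the first and the second set, and without WT 2 it called 31, 0 and 8, with no member among them. In both fits the WT arm is 1 library.

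The other genes of the pathway were taken from a list of 24 that take part in crosslink repair, among them Fancb of the core complex, the ubiquitin-conjugating enzyme gene Ube2t and the nuclease genes Slx4, Ercc4 and Fan1. Of these, 11 had an APH origin, 13 a CDC6 origin and 7 a WT origin in their window. Over all genes the shares were 53.6% (APH), 58.5% (CDC6) and 48.1% (WT). In 10 of the 24 windows no list had an origin (34.8% of all genes). Within 1 kb of a gene end, 5 (APH), 7 (CDC6) and 4 (WT) had an origin, and 16 had none in any list. Over all genes, 33.3% (APH), 40.6% (CDC6) and 32.2% (WT) had one there. Limma tested 10 of the 24 genes and called 0, with a lowest adjusted p of 0.418. Mad2l2, a subunit of translesion polymerase zeta, and Wdr48, a partner of the deubiquitinase of Fancd2, had an origin within 1 kb of a gene end in all 3 lists. Palb2, a recombination mediator gene, had one in the WT list alone, and Faap100, a core complex partner gene, in the CDC6 list alone. All 3 lists had a further origin across the edge of the Palb2 window, chr7:122101530-122102549 in the WT list. The window had 0 and 0 peak midpoints in APH, 0 and 0 in CDC6, and 1 and 1 in WT. At Faap100 there were 2 and 3 in APH, 3 and 2 in CDC6, and 3 and 1 in WT. Scaled, these were 2.13 and 3.33 in APH, 3.29 and 1.93 in CDC6, and 2.51 and 0.979 in WT, and the conditions overlapped. These numbers are for the whole window, not for the origin itself.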

How the data were processed

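The values are from deposited processed files, not from reads. MACS lists give for each peak the authors' score, their fold ratio over a control and the −log10 of the p-value and q-value, per the file headers and column layout. No deposited peak has a q-value above 0.1. The submitters' processing notes name MACS2 2.0.10 and the tools BWA 0.7.10, Picard 1.107, bedtools 2.23.0 and SAMtools 0.1.19. Their settings, the meaning of the 2 scores in the origin lists and the way libraries were combined are not given by the sources used here. Positions are on mm10 as in the files.

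A peak was counted in a window that holds its midpoint, and an origin where it overlaps by at least 1 bp. Numbers were scaled to the mean library total. Windows with a mean of at least 2 were tested as log2(number + 1) with limma 3.58.1 (lmFit, eBayes with a trend, R 4.3.3) over all 6 libraries with group means only. P-values were adjusted by Benjamini-Hochberg over 8290 windows, with a threshold of 0.05. A log2 difference on this scale understates the change of low windows. The fit was also run on simulated numbers. The windows changed there had higher means than any member, so that run does not show which changes at members could be found. The files give no read depth. Loci are origins of the 3 lists merged where they overlap. Peak percentiles are ranks by q-value within a library. Distances are from the RefSeq start site, and Fancc and Fancm have an annotated span that begins upstream of it. Named were all members, neighbours touching a window (1 is not reported here), other pathway genes by their gene-end origins (none being called), and the 3 genes most like the member with most peaks. Members and lists were chosen with earlier results of these data known. The Input sample was not analysed here.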

Additional observations from a re-analysis of the deposited data

How the results depend on the processing

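The number of windows called by limma was 0 in each comparison. Without a filter on the mean it was 318 for APH minus WT, 277 for CDC6 minus WT and 228 between APH and CDC6, and with the same number of peaks in each library 13, 22 and 9. None of these was a member. Over the fits that leave out 1 library it ranged from 0 to 112 for APH minus WT, from 0 to 812 for CDC6 minus WT and from 0 to 8 between APH and CDC6. With the replicate block, limma called 0, 0 and 0. Libraries with the same number did not deviate together (r = -0.0674 between APH and CDC6, -0.161 between APH and WT, 0.0191 between CDC6 and WT), so they share only a number. The other alternatives also called 0.

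Of 105 log2 differences of members under other settings, 8 changed sign, all of values that were not called. Fancl turned to -0.063 (APH minus WT) and -0.024 (APH minus CDC6) at a q-value of at most 0.01, to -0.070 (APH minus WT) with the same number of peaks, and to -0.10 (APH minus CDC6) and 0.15 (CDC6 minus WT) with the second lists as labelled. Fancc turned to 0.23 (APH minus CDC6) with the second lists. Sign changes with the second lists are hard to read, since some of their labels go against the content. Fance turned to 0.17 with 20 kb on each side of the body and to 0.072 at a q-value of at most 0.01 (APH minus CDC6). Leaving out 1 library gave -0.28 to 0.53 (APH minus WT) and -0.019 to 0.79 (CDC6 minus WT) at Fanca. At Fance it gave 0.068 to 1.88 for APH minus WT, 0.22 to 2.03 for CDC6 minus WT and -0.39 to 0.083 between APH and CDC6, and at Fancl -0.13 to 0.42 (APH minus WT) and -0.32 to 0.24 (CDC6 minus WT). The cause was not tested. Fancc kept its sign there, at -1.52 to -1.05 in APH minus WT. With the second lists as labelled that difference was -0.057 (limma adjusted p = 0.959). Because some of those labels go against the content, that value cannot tell how firm the difference between APH and WT is. At a q-value of at most 0.01, Fanca gave -0.80 (APH minus CDC6) and 0.92 (CDC6 minus WT). With 20 kb on each side of the body, Fance gave 0.49 (CDC6 minus WT).

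Within 1 kb of a gene end, 3 (APH), 3 (CDC6) and 1 (WT) members had an origin, beside 33.3% (APH), 40.6% (CDC6) and 32.2% (WT) of all genes. With the same number of origins per list it was 5 (APH), 7 (CDC6) and 3 (WT), beside 47.2% (APH), 49.9% (CDC6) and 48.1% (WT) of all genes. The share of peaks at members was 0.0287% (APH), 0.0363% (CDC6) and 0.0345% (WT) at a q-value of at most 0.01. It was 0.0227% (APH), 0.0271% (CDC6) and 0.0283% (WT) in bodies alone, and 0.0226% (APH), 0.0265% (CDC6) and 0.0284% (WT) without Fanca. By covered bases it was 0.0332% (APH), 0.0361% (CDC6) and 0.0345% (WT). There the conditions overlapped, with 0.0302% and 0.0362% in APH, 0.0437% and 0.0286% in CDC6, and 0.0375% and 0.0315% in WT. With the same number of peaks in each library, the share of peaks was 0.0329% in CDC6. Without 1 library it ranged from 0.0255% to 0.0280% in APH, 0.0317% to 0.0318% in CDC6 and 0.0308% to 0.0338% in WT. In alternatives chosen after seeing the data, 5 of 8 promoters had a peak in every library without WT 2 (36.4% of all promoters) and 3 without WT 1 (32.9%). Of the 15 loci, 13 did without WT 2 (54.0% of all loci) and 11 without WT 1 (59.5%). Groups of 2 libraries and windows with few peaks limit all of these.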
